A study of Mus musculus with 283 samples.

Results

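The 10 endothelial genes described here are Kdr, Flt1, Tek, Aplnr, Angpt2, Cdh5, Pecam1, Esam, Plvap and Vwf. They were taken by name from the 45657 gene entries of the tumour table, and all 10 were present. Values are the deposited normalized signal, given throughout as log2 of the signal plus 1, so that a difference of 1 is a doubling of signal. The genes are named for the cell type in which they are best known, and each was measured in whole tissue, where fewer endothelial cells and less RNA per endothelial cell cannot be told apart.

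Blood vessels are lined by endothelial cells, and a growing tumour depends on vessels drawn from its host. VEGF ligands act on these cells through the receptors Kdr and Flt1, of which Flt1 also binds ligand without strong signalling. Angiopoietins act through the receptor Tek, where Angpt1 stabilises vessels and Angpt2, released by activated endothelial cells, opposes it in many settings. Aplnr is the receptor for apelin and marks sprouting vessels. Cdh5 (VE-cadherin), Pecam1 and Esam hold neighbouring endothelial cells together, with Pecam1 and Esam also found on platelets and Pecam1 on leukocytes. Plvap forms the diaphragms of fenestrae and caveolae, and Vwf is the clotting protein that endothelial cells and platelets store.

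The series measured RNA in 254 mouse mammary tumours of 26 models, in 9 normal mammary glands and in 6 cultured tumour lines, beside 13 exome samples that were not analysed here. Therapy was antibody against PD1 with antibody against CTLA4 (the labels' Pd1.CTLA4), given into the abdomen at 10 mg/kg of the first and 125 ug of the second per the labels, for 3 days, 7 days or until end stage, and untreated tumours were the controls at each time. The models with both arms were T11-Apobec, T11-UV, KPB25L-UV and KPB25L, which the labels class as sensitive, and T11, p53-2225L and p53-2336R, which they class as resistant. Per the labels, tumours were grown in the mammary site of syngeneic mice and entered the arms at 5 mm diameter, a text given for every sample, glands included. Each of these models is a transplanted line, and the names T11-UV, T11-Apobec and KPB25L-UV mark derivatives of T11 and KPB25L, so that members of a family share an origin. The labels give neither the alleles of these lines nor the age of the mice. KPB-Primary, C3-TAG, PyMT, ILC-Pik3Ca/Cdh1Null and others were untreated tumours at end stage. The glands came from FVB and BALB/c mice, and 4 of the 9 were labelled as pooled.

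The estimated depth was 3.47 M to 149.56 M reads per library, with a median of 51.4 M. All 10 genes passed the filter on low values and were above 0 in every tumour and gland. Of the libraries labelled KPB25L-UV, 6 carried transcripts typical of T11 at means of 6.22 to 8.35, against 1.75 to 4.23 in libraries of KPB25L and KPB25L-Apobec and 6.85 to 9.29 in the T11 family. These 6 go against their label, and the calls that use them are also given without them. Below, omissions leave out 1 library at a time, except that at end stage 1 replicate number is left out of all end-stage groups at once. At 3 days the column headers call all 47 untreated tumours pretreatment, while the labels give them the time of 3 days. The file names in the column headers give the flow cell, the sequencing run a library was on. Any library whose file name held none was left out of the fits with flow cell as a term. At 7 days both arms of T11-Apobec, T11, KPB25L and KPB25L-UV shared theirs, whereas the arms of T11-UV at 7 days, of T11 at 3 days and of KPB25L-UV, T11-UV and T11-Apobec at end stage shared none, so that therapy and flow cell cannot be told apart within them.

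In the mouse build GRCm38, per GENCODE, Kdr lies at chr5:75932827-75978458 and Flt1 at chr5:147561604-147726011, both on the minus strand. Tek lies at chr4:94739289-94874976 and Aplnr at chr2:85136225-85139923, both on the plus strand. Cdh5 lies at chr8:104101625-104144511 (plus), while Plvap at chr8:71497765-71511752 and Angpt2 at chr8:18690263-18741562 are on the minus strand of the same chromosome. Pecam1 lies at chr11:106654217-106750628 (minus), Esam at chr9:37528078-37538319 (plus) and Vwf at chr6:125546774-125686679 (plus). All are annotated as protein coding, and the values count a whole gene, exons of all its transcripts together.

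Promoters in the RefSeq-based table for GRCm38 were matched for 3 of the 10 genes, the receptors Kdr, Tek and Flt1, which are the genes that give the VEGF and angiopoietin signals their entry to the cell. The 250 bases before each start are shown because ETS factors, a family known for its part in endothelial gene control, bind a core of GGAA, and the capitals mark each GGAA or, for the other strand, TTCC.
Kdr, chr5:75978456-75978705, minus strand: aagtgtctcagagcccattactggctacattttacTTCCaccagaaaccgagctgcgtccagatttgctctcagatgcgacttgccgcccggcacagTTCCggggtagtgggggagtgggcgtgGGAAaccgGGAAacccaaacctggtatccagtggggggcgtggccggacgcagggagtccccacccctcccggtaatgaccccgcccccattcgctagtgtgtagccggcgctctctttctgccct
Tek, chr4:94739039-94739288, plus strand: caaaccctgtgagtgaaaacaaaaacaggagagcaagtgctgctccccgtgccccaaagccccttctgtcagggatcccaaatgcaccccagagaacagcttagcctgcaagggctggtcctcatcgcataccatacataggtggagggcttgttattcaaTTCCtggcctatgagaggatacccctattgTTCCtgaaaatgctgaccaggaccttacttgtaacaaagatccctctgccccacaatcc
Flt1, chr5:147726012-147726261, minus strand: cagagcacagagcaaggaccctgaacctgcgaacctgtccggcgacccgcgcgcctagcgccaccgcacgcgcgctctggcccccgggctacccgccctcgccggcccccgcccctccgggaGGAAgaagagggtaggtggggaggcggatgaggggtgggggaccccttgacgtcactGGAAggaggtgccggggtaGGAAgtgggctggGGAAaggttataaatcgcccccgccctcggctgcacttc
The core occurs 4 times in the Kdr window, 2 times in the Tek window and 4 times in the Flt1 window, with no overlap between copies. It is common: 93.4% of 32851 promoter windows of the same length hold at least 1 copy, the median is 3, and 33.4% hold as many as Kdr and Flt1. The windows of Kdr, Tek and Flt1 are 61.6%, 51.2% and 70.4% G or C, against a median of 52.4% over all promoters. The match describes these letters and is no evidence of binding.

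Untreated tumours at end stage held less signal of nearly all the endothelial genes than normal mammary gland. In 46 tumours of 4 models set against 4 FVB glands, 9 of the 10 genes were lower, in a comparison where 25.8% of the 21359 genes tested were called lower. Called means an adjusted p under 0.05 from limma with Benjamini-Hochberg adjustment over all genes tested. In 18 tumours of T11, p53-2225L and p53-2336R set against 5 BALB/c glands, 9 of the 10 were again lower, where 35.2% of genes were called lower. Angpt2 was the exception in both. The median difference over the 10 genes was -2.27 against FVB gland and -1.98 against BALB/c gland, beside medians over all genes of 0.10 and -0.23. The models compared with one strain share its glands, and the labels give no strain for KPB-Primary, C3-TAG and PyMT, which were set against FVB gland by choice.

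Tek, the angiopoietin receptor, differed most. Its signal was 8.43 to 10.25 in KPB25L tumours with a median of 9.09, 5.44 to 9.69 in KPB-Primary tumours with a median of 7.97, 7.99 to 10.76 in C3-TAG tumours with a median of 8.76, and 5.54, 8.77, 7.64, 7.72 and 8.94 in PyMT tumours, against 12.39, 12.01, 12.17 and 12.32 in FVB glands. Every tumour lay below every FVB gland. The difference was -3.81 ± 0.49 (SE, limma adjusted p = 1.15e-10), a signal 14-fold lower in tumours. T11 tumours held 8.35 to 8.84, p53-2225L tumours 5.89 to 8.10 and p53-2336R tumours 5.37 to 9.97, against 9.90, 11.87, 11.61, 12.29 and 12.26 in BALB/c glands. The first BALB/c gland stood well below the other 4, and the highest p53-2336R tumour just passed it. The difference against BALB/c gland was -3.60 ± 0.47 (adjusted p = 1.37e-10), and without that gland it was -4.02.

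Kdr and Flt1, the VEGF receptors, differed from gland by unequal amounts. Kdr averaged 10.65 in the FVB-compared tumours and 13.35 in FVB glands (difference -2.70 ± 0.35, adjusted p = 1.51e-10, 6.48-fold lower), and 10.40 in the BALB/c-compared tumours against 12.97 in BALB/c glands (-2.57 ± 0.33, adjusted p = 1.42e-10). Flt1 averaged 11.44 in tumours and 12.61 in FVB glands (-1.17 ± 0.30, adjusted p = 0.00075), and 11.12 in tumours and 12.10 in BALB/c glands (-0.99 ± 0.29, adjusted p = 0.00278). Flt1 and Angpt2 thus moved least of the 10, each by its own contrast, and no test set one gene against another. C3-TAG tumours held 11.11 to 13.42 of Flt1 with a median of 12.76, and FVB glands held 12.57, 12.48, 12.85 and 12.55. These overlap fully, and Flt1 was the receptor that C3-TAG did not lower (-0.04 ± 0.34, adjusted p = 0.935).

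Aplnr, the apelin receptor, averaged 9.62 in tumours and 11.80 in FVB glands (-2.18 ± 0.59, adjusted p = 0.00122), and 9.34 in tumours and 11.49 in BALB/c glands (-2.15 ± 0.57, adjusted p = 0.000802). It also varied most among tumours of 1 model. In p53-2336R tumours it ran from 5.13 to 11.27 with a median of 9.87. Angpt2, the ligand, averaged 0.32 lower against FVB gland (adjusted p = 0.484) and 0.02 lower against BALB/c gland, neither called. In FVB glands it stood at 9.65, 9.58, 9.42 and 10.22, within the range of the tumours. Only PyMT, among the 7 models each set against its gland, had lower Angpt2 by the test (-1.14 ± 0.47, adjusted p = 0.0381), and that call was lost in 6 of 9 omissions (tumour replicates 2, 4 and 5 and gland replicates 1, 2 and 4), with adjusted p up to 0.157.

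The junction genes Pecam1 and Cdh5 were lower in each of the 7 models set against its gland, and Esam in 6 of them, KPB25L being the exception. Pecam1 lay between 12.01 and 12.93 in KPB25L tumours, 9.99 and 12.16 in KPB-Primary tumours, 11.01 and 12.93 in C3-TAG tumours and 10.13 and 11.53 in PyMT tumours, against 13.88, 13.94, 14 and 14.32 in FVB glands. No tumour reached the lowest gland. The difference was -2.50 ± 0.25 (adjusted p = 7.2e-15), 5.65-fold lower, and against BALB/c gland it was -2.39 ± 0.24 (adjusted p = 6.05e-15). Cdh5 averaged 11.50 in tumours and 13.85 in FVB glands (-2.36 ± 0.32, adjusted p = 1.07e-09) and 11.72 in tumours and 13.54 in BALB/c glands (-1.81 ± 0.31, adjusted p = 3.8e-07). Esam averaged 10.12 in tumours and 11.86 in FVB glands (-1.74 ± 0.25, adjusted p = 5.55e-09) and 10.64 in tumours and 11.74 in BALB/c glands (-1.10 ± 0.24, adjusted p = 5.77e-05), but its call in T11 tumours alone was lost in 6 of 10 omissions (tumour replicates 4 and 5 and gland replicates 2 to 5), with adjusted p up to 0.113.

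Plvap, the diaphragm protein, averaged 11.26 in tumours and 12.62 in FVB glands (-1.36 ± 0.27, adjusted p = 8.62e-06) and 11.40 in tumours and 13 in BALB/c glands (-1.60 ± 0.25, adjusted p = 6.57e-08). Vwf averaged 9.27 in tumours and 12.13 in FVB glands (-2.85 ± 0.42, adjusted p = 1.14e-08, 7.22-fold lower) and 8.84 in tumours and 12.24 in BALB/c glands (-3.39 ± 0.40, adjusted p = 6.4e-12, 10.5-fold lower). Every T11, p53-2225L and p53-2336R tumour held less Vwf than every BALB/c gland, the low first gland at 10.43 included. Among C3-TAG tumours Vwf reached 13.29, above all FVB glands, in 1 of 11 libraries, while the median was 10.04.

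Model by model, the number of the 10 genes called lower than gland was 5 in KPB25L (30.5% of all genes called lower), 9 in KPB-Primary (24.5%), 8 in C3-TAG (27.1%) and 10 in PyMT (24.3%), all against FVB gland. It was 7 in T11 (35.3%), 9 in p53-2225L (30.8%) and 9 in p53-2336R (34.5%) against BALB/c gland. Those not called in KPB25L were Flt1, Aplnr, Esam, Plvap and Angpt2. The glands of the 2 strains did not differ in any of the 10 genes, called or at an unadjusted p under 0.05, where 3.62% of all genes differed and 3316 had an unadjusted p under 0.05.

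**Figure D1:**
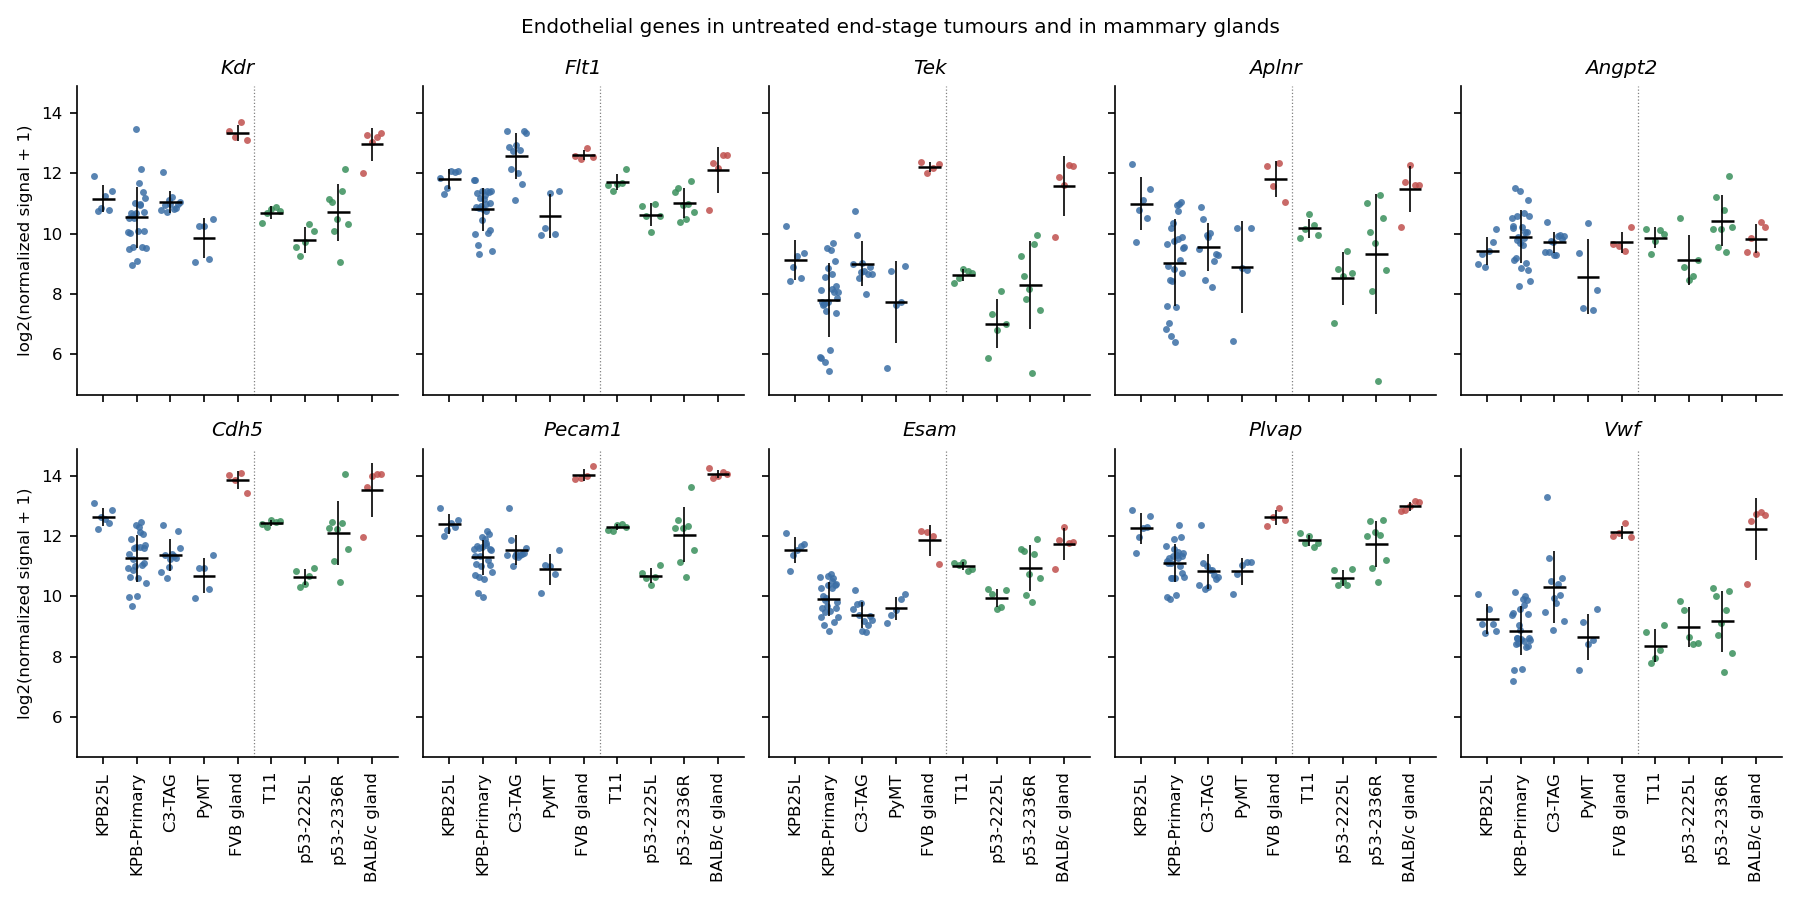
Signal of each endothelial gene (log2 of normalized signal plus 1, y axis) in untreated end-stage tumours of each model and in the mammary glands it was set against, 1 point per sample, with a bar at the mean and a whisker of 1 SD. FVB glands stand at 12.01 to 12.39 for Tek with all tumours of the 4 models to their left lower, at 10.76 or less, while the Angpt2 points of tumours and glands overlap.

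Across the end-stage groups of at least 4 tumours, the order of levels had glands at the top for 9 genes and KPB-1B at the top for Angpt2 (10.98 ± 0.83, SD, n = 4). Most neighbours in the order lay within each other's SD. Gaps wider than the spread came below FVB gland for Pecam1 and Vwf and below BALB/c gland for Kdr. C3-TAG stood second for Flt1 (12.58 ± 0.76, n = 11), just below FVB gland (12.61 ± 0.16, n = 4), and last for Esam (9.38 ± 0.43, n = 11). PyMT stood last for Flt1 (10.58 ± 0.73, n = 5) and Angpt2 (8.58 ± 1.26, n = 5). The last place was held by p53-2225L for Pecam1, Cdh5, Kdr, Tek, Aplnr and Plvap, and by T11-Apobec for Vwf.

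Other genes of the vessel wall, on a list of 22 further endothelial genes chosen with earlier results of these data known, were called lower for 21 of 22 against FVB gland (median -2.17) and 21 of 22 against BALB/c gland (median -1.77). Ptprb, a phosphatase that restrains Tek, was lower by 3.44 ± 0.36 and 2.95 ± 0.35 on the log2 scale. On a list of 9 tip cell genes, 7 rose and none fell against BALB/c gland, where 4359 of 21359 genes tested were called higher. Esm1 (3.45 ± 0.50), Kcne3 (3.24 ± 0.40) and Unc5b (2.13 ± 0.29) led. Against FVB gland 2 rose (Kcne3 by 3.16 ± 0.42, Unc5b by 1.59 ± 0.30) and 2 fell. There, 6019 of 21359 genes tested were called higher and 5502 lower. Among 11 vessel growth ligands, Pgf, which binds Flt1, rose by 2.83 ± 0.49 against FVB gland and by 3.02 ± 0.47 against BALB/c gland, and Fgf2 fell by 3.45 ± 0.32 and by 2.48 ± 0.31 on the log2 scale. Mural cell genes, which mark the pericytes and smooth muscle around vessels, fell for 8 of 11 against FVB gland and for 4 of 11 against BALB/c gland, where 1 rose.

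Normal gland is a fat pad with ducts, and its other cells moved with the endothelial genes. All 8 adipocyte genes fell against each gland, with medians of -10.89 against FVB gland and -11.2 against BALB/c gland. Their summed signal had a log2 of 18.80 to 20.22 in FVB glands and 16.74 to 19.78 in BALB/c glands, with tumour group medians from 6.89 in p53-2225L, where Lep was at 0, to 11.03 in C3-TAG among the 7 models. All 10 T cell genes fell too (medians -5.53 and -7.82). The part of these cells in the gland results was not tested.

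Untreated ILC-Pik3Ca/Cdh1Null tumours, written ILC below, held more signal of most of the genes than PyMT tumours, a comparison chosen after their values were seen. ILC tumours held 9.88 to 10.61 of Tek with a median of 10.23, and PyMT tumours held 5.54 to 8.94. Each ILC tumour exceeded each PyMT tumour. The difference in Tek was 2.57 ± 0.50 (adjusted p = 1.27e-05), 5.95-fold higher. Pecam1 was 1.94 ± 0.26 higher (adjusted p = 9.76e-10), with 12.41 to 13.40 in ILC tumours against 10.13, 11.05, 11.02, 10.76 and 11.53 in PyMT tumours. In all, 9 of the 10 genes were higher, where 22.5% of all genes were called higher, and the remaining gene was Flt1 (0.57 ± 0.31, adjusted p = 0.131). The Angpt2 difference of 1.32 ± 0.38 overlapped between the models and lost its call without tumour replicate 4 (1.00, adjusted p = 0.0525). Beside these, 20 of 22 further endothelial genes, 7 of 8 adipocyte genes (median 5.03), 8 of 8 fibroblast genes (median 4.45) and 10 of 10 T cell genes (median 4.66) were higher in ILC tumours, and 6 of 10 hypoxia genes were lower. Over all 21359 genes tested, 4708 were called lower. The part of these lists in the result was not tested.

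Therapy for 7 days changed 2 of the 10 genes in the sensitive models pooled, 18 treated and 15 untreated tumours of 4 models, where 36.7% of the 20845 genes tested were called in either direction. That count lies below the background, and the median over the 10 genes was 0.08, beside -0.07 over all genes. Aplnr, the apelin receptor, held 4.91 to 12.65 in treated tumours with a median of 9.89 and 6.37 to 12.82 in untreated tumours with a median of 9.17. The ranges are wide and overlap. Averaged over models, treated tumours stood at 8.44 and untreated tumours at 9.45, a fall of 1.01 ± 0.35 (adjusted p = 0.0157, 2.02-fold lower) that had the same direction in 4 of 4 models. The medians over all tumours run the other way, since they do not weight the models equally. The fall was widest in T11-UV (-2.50), whose arms shared no flow cell, and was -0.63 in KPB25L. Among the 4 models tested singly, Aplnr was called in T11-UV alone. Plvap, which lines fenestrae, held 12.05 to 14.14 in treated tumours with a median of 12.87 and 11.45 to 13.52 in untreated tumours with a median of 12.06. It rose by 0.59 ± 0.19 (adjusted p = 0.00978), again in 4 of 4 models and with overlap.

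These calls depended on how libraries were treated. With flow cell as a term, the Aplnr difference was -1.01 with an adjusted p of 0.101, and Angpt2 was called at 0.79 (adjusted p = 0.0402). Without the KPB25L-UV libraries that carry T11 transcripts, Plvap was 0.45 higher with an adjusted p of 0.0628, and both Cdh5 (-0.57, adjusted p = 0.00778) and Kdr (-0.63, adjusted p = 0.00793) were called lower. Among the other vessel genes, 0 of 22 further endothelial genes were called, with a median of 0.04. Of 11 mural cell genes 4 fell, and of 9 tip cell genes 5 fell and 1 rose, with Kcne3 at -1.82 and Nid2 at -1.51. Of 9 genes for leukocyte adhesion on vessels 6 rose, led by Madcam1 (1.62), Glycam1 (1.55) and Ackr1 (1.45). Over all 20845 genes tested, 3233 were called higher and 4426 lower. All 10 T cell genes rose (median 2.33), and their part in the vessel results was not tested.

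T11 stood for the resistant models at 7 days, with 4 treated and 4 untreated tumours. No endothelial gene changed, and none had an unadjusted p under 0.05, where 0% of all genes were called and 61 had an unadjusted p under 0.05. Cdh5 held 12.56, 12.11, 12.86 and 12.76 in treated T11 tumours and 12.96, 12.91, 12.92 and 12.45 in untreated ones. Kdr held 10.64, 10.38, 10.60 and 10.71 in treated and 10.83, 10.39, 10.88 and 10.48 in untreated tumours. The arms overlapped for both. The difference between the response of the sensitive models and that of T11 was called for 0 of the 10 genes, with none at an unadjusted p under 0.05, where 0.0048% of all genes were called and 1892 had an unadjusted p under 0.05.

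Each sensitive model was also tested singly, and no test set one sensitive model against another. In T11-Apobec at 7 days Cdh5 and Kdr fell, 2 of the 10 genes, a share close to the 15.7% of all genes called lower. The median over the 10 genes was -0.59, beside -0.05 over all genes. Cdh5, which encodes VE-cadherin, held 10.59, 11.39, 10.95 and 10.60 in treated tumours, against 12.17, 12.45, 12.44 and 11.91 in untreated tumours. Every treated tumour lay below every untreated one. The difference was -1.36 ± 0.35 (adjusted p = 0.00192), 2.57-fold lower. Kdr held 8.27, 9.60, 9.01 and 8.43 in treated tumours, against 9.90, 10.32, 10.33 and 10.04 in untreated tumours, again with no overlap, and fell by 1.32 ± 0.42 (adjusted p = 0.0125, 2.50-fold lower). Its call was lost without treated replicate 1 (-1.13, adjusted p = 0.0835), while that of Cdh5 held in each omission.

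Tek in the same tumours held 6.90, 6.66, 6.77 and 5.57 in the treated arm and 7.53, 7.81, 7.94 and 7.54 in the untreated arm. The arms did not overlap, but the difference of -1.23 missed the threshold (adjusted p = 0.0749). Vwf stood at 8.58, 8.18, 8.26 and 7.75 in treated tumours, against 9.64, 9.16, 9.05 and 8.61 in untreated tumours (-0.92, not called), with every treated tumour below every untreated one. Plvap stood at 12.94, 12.07, 12.52 and 12.11 in treated tumours, against 11.89, 11.96, 12.06 and 11.45 in untreated tumours, the opposite direction (0.57, not called). With the spread taken from the T11-Apobec arms alone, 4 genes were called, Tek (adjusted p = 0.0173) and Vwf (adjusted p = 0.0233) among them. In that setting 8748 of all 20845 genes tested were called in either direction, so that many genes gained a call.

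Set against T11 itself, the response of T11-Apobec differed for 0 of the 10 genes by the fit with all groups, where 4.62% of all genes were called, although 2 of the 10 had an unadjusted p under 0.05. The difference between the responses was -1.12 ± 0.50 for Cdh5 (adjusted p = 0.164) and -1.26 for Kdr (adjusted p = 0.198). With the spread from these groups alone 4 genes were called, Cdh5 (adjusted p = 0.0116), Kdr (adjusted p = 0.0122), Tek (-1.16, adjusted p = 0.0297) and Vwf (-1.67, adjusted p = 0.0214). The background of that setting was far wider than 4.62%, with 6352 of all 20845 genes tested called in either direction.

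Of 22 further endothelial genes 4 fell and 0 rose in T11-Apobec (median -0.45), a share close to the 15.7% of all genes called lower, with Ptprb at -1.39 ± 0.45, Gpihbp1 at -1.14 ± 0.44 and the ETS factor gene Erg at -1.10 ± 0.38. Of 11 mural cell genes 5 fell, including Pdgfrb, the pericyte receptor, at -1.79 ± 0.36 and Cspg4 at -1.81 ± 0.42. Of 9 tip cell genes 5 fell and 1 rose, with Nid2 at -2.79 ± 0.58, Kcne3 at -2.75 ± 0.52 and the basement membrane collagen Col4a1 at -1.67 ± 0.36. Of the ligands, Fgf2 fell by 1.65 ± 0.42 on the log2 scale and Angpt1, the ligand of Tek, by 1.36 ± 0.54. Against these, 4 of 9 genes for leukocyte adhesion rose, Ackr1 by 2.92 ± 0.99 and Madcam1 by 2.78 ± 0.74. Over all 20845 genes tested, 2850 were called higher.

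The cell makeup of the T11-Apobec tumours differed between the arms at the same time. The log2 of the summed T cell signal was 13.22 to 13.88 in treated and 10.65 to 11.37 in untreated tumours, and that of macrophage genes was 17.61 to 18.28 and 16.70 to 16.95 in the same order. Summed mural cell signal was 13.88 to 14.60 in treated and 15.05 to 15.52 in untreated tumours, and fibroblast signal was 16.21 to 17 and 17.46 to 18.07. The 22 further endothelial genes summed to 14.69 to 14.99 in treated and 14.97 to 15.24 in untreated tumours. Each of these ranges is apart from its counterpart except the last, which meets at its edge. The part of a changed cell makeup in the fall of Cdh5 and Kdr was not tested.

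In T11-UV at 7 days Aplnr held 5.06, 4.91, 6.73 and 5.09 in treated tumours, against 7.16, 9.17, 6.60 and 8.87 in untreated tumours. Treated replicate 3 alone reached the untreated range. Aplnr fell by 2.50 ± 0.70 (adjusted p = 0.0122, 5.66-fold lower), the only one of the 10 genes called where 3.15% of all genes were called lower. The call was lost without untreated replicate 2 (-2.09, adjusted p = 0.088) or untreated replicate 4 (-2.19, adjusted p = 0.0692). The 2 arms shared no flow cell, and with that term the adjusted p was 0.41. Aplnr was not called with the spread of the 2 arms alone, where 441 of all 20845 genes tested were called in either direction.

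KPB25L at 7 days had 0 of 10 genes called, with 1 at an unadjusted p under 0.05, where 0% of all genes were called and 1199 had an unadjusted p under 0.05. Angpt2 held 11.28, 8.98, 9.42 and 10.50 in its 4 treated tumours, a mean 1.23 above the untreated ones. In KPB25L-UV, Vwf held 9.76, 12.89, 10.12, 12.38, 9.78 and 11.19 in treated tumours, against 10.25, 9.49, 8.81 and 8.93 in untreated tumours, with overlap, and it rose by 1.65 ± 0.55 (adjusted p = 0.0243, 3.13-fold higher). Plvap held 13.38, 13.77, 13.95, 13.68, 12.89 and 13.95 in treated tumours, against 13.52, 13.39, 11.74 and 12.06 in untreated tumours, and rose by 0.93 ± 0.35 (adjusted p = 0.0441). These were 2 genes where 8% of all genes were called higher. Neither was called with the spread of the KPB25L-UV arms alone, where 2 of all 20845 genes tested were called.

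Some of these KPB25L-UV libraries differ from the others of their label. Treated replicates 1 and 5 and untreated replicates 3 and 4 carry T11 transcripts, and the 2 untreated ones were low in Plvap, Kdr (9.22 and 9.76, against 12.80 and 12.43 in the other 2) and Tek (7.01 and 6.72, against 11.01 and 10.52). Without these 4 libraries Plvap was 0.38 higher with an adjusted p of 0.58. The Vwf difference was as large without them (1.77), but with fewer libraries its adjusted p was 0.0707. Omitting any single library moved the count of called genes to between 0 and 5. The Vwf call was lost without untreated replicate 3 or 4 or treated replicate 2 or 4, and the Plvap call without those or treated replicate 3 or 6.

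**Figure D2:**
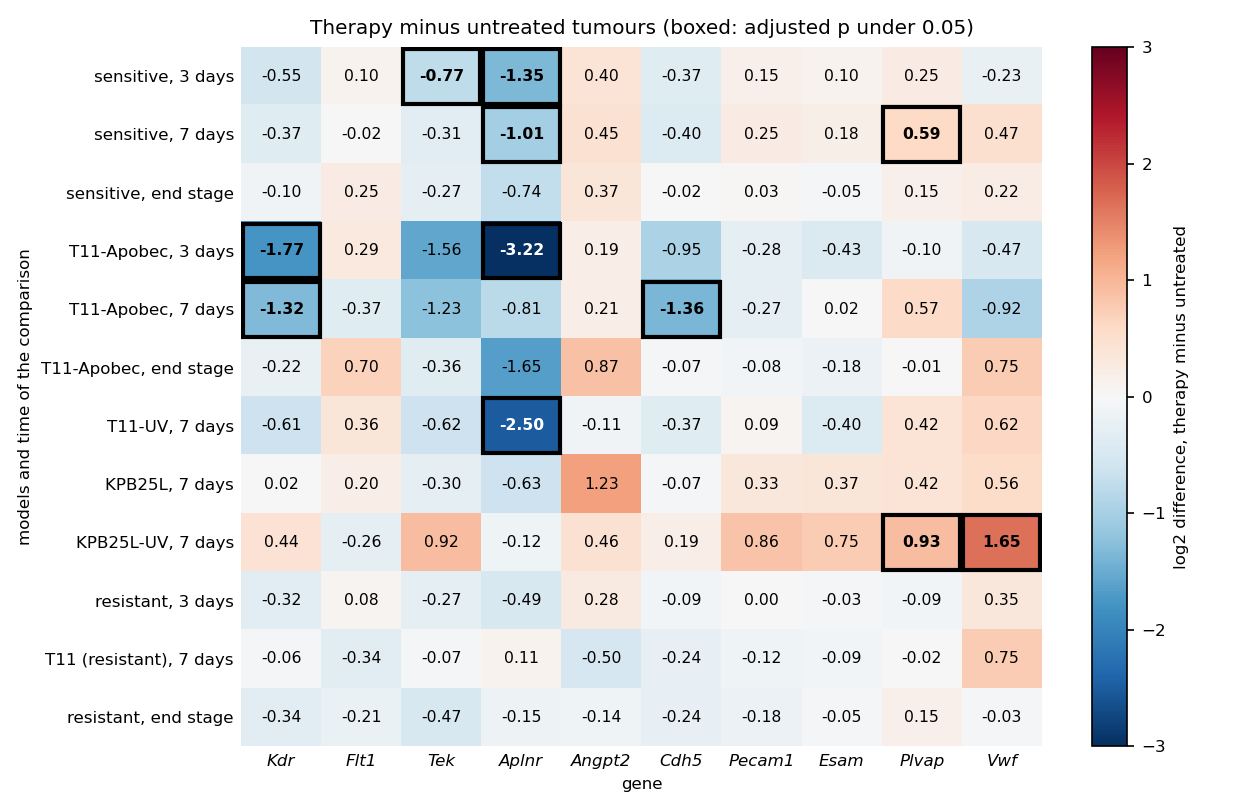
Log2 difference between therapy and untreated tumours (colour and number) for each endothelial gene (x axis) in each comparison (y axis), with calls at an adjusted p under 0.05 boxed. Aplnr is negative in 11 of the 12 comparisons, down to -3.22 in T11-Apobec at 3 days, and the boxed positive values drawn are those of Plvap and Vwf. Models other than T11-Apobec are drawn singly at 7 days only, so the KPB25L calls at 3 days and the KPB25L-UV call at end stage are not shown.

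At 3 days, 15 treated and 17 untreated tumours of the 4 sensitive models gave 2 genes called lower, where 6.92% of all genes were called lower, with a median over the 10 genes of -0.06, beside -0.07 over all genes. Aplnr held 4.47 to 12.43 in treated tumours with a median of 10.65 and 7.70 to 13.34 in untreated tumours with a median of 10.11. Averaged over models it stood at 9.0 in treated and 10.35 in untreated tumours and fell by 1.35 ± 0.35 (adjusted p = 0.0107, 2.56-fold lower), in 4 of 4 models. The medians over all tumours run the other way, since they do not weight the models equally. Tek fell by 0.77 ± 0.28 (adjusted p = 0.046), in 3 of 4 models. With the spread taken from the compared groups alone neither gene was called, where 0 of all 20845 genes tested were called. Aplnr lost its call without T11-UV treated replicate 1 (-1.22, adjusted p = 0.0692) or replicate 3 (adjusted p = 0.0504) and with flow cell as a term (-1.26, adjusted p = 0.0577), and Tek lost its call in 19 of 32 omissions, with adjusted p up to 0.154. Those 19 were T11-Apobec untreated replicates 2 and 4 and treated replicates 1 and 2, KPB25L-UV untreated replicates 1, 2 and 4 and treated replicates 1 and 3, T11-UV untreated replicates 1, 3 and 4 and treated replicates 1 and 3, and KPB25L untreated replicates 2, 3 and 5 and treated replicates 4 and 5. Without the KPB25L-UV libraries that carry T11 transcripts, Aplnr (-1.40, adjusted p = 0.00528) and Tek (-0.87, adjusted p = 0.00787) were called, and Kdr with them (-0.59, adjusted p = 0.0203).

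Among the 4 sensitive models the 3-day difference in Aplnr was widest in T11-Apobec. Aplnr held 4.47, 5.52, 6.08 and 6.03 in treated tumours, against 7.70, 9.28, 8.90 and 9.10 in untreated tumours, and Kdr held 8.0, 7.73, 8.98 and 8.94 in treated tumours, against 9.67, 10.29, 10.24 and 10.53 in untreated tumours. No treated tumour reached the untreated range for either gene. Aplnr fell by 3.22 ± 0.70 (adjusted p = 0.0357, 9.31-fold lower) and Kdr by 1.77 ± 0.42 (adjusted p = 0.0461, 3.41-fold lower), 2 of the 10 genes where 0.048% of all genes, 10 in number, were called lower. Aplnr lost its call without untreated replicate 2 or 4 or treated replicate 1 or 2, with adjusted p of 0.184 to 0.305, and Kdr without any untreated replicate or treated replicate 1 or 2, with adjusted p up to 0.635. Neither was called with the spread of these arms alone, where 4 of all 20845 genes tested were called. Cdh5 held 10.96, 10.5, 11.34 and 11.38 in treated and 11.66, 12.19, 11.77 and 12.38 in untreated tumours, again apart, and Tek held 5.88, 5.52, 6.85 and 6.36 in treated and 7.29, 7.88, 7.53 and 8.15 in untreated tumours, but neither was called. None of the other gene lists had a called gene at this time.

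In KPB25L at 3 days Pecam1, Plvap and Angpt2 were called higher where 8.73% of all genes were called higher. With the spread taken from these arms alone none of them was called, where 0 of all 20845 genes tested were called. Angpt2 held 9.27, 10.19, 8.57, 11.98 and 12.75 in treated tumours, against 8.47, 8.48, 9.02, 9.12 and 8.80 in untreated tumours, and rose by 1.77 ± 0.43 (adjusted p = 0.00343). Plvap held 12.72, 14.10, 12.44, 14.65 and 14.99 in treated tumours, against 11.54, 12.99, 12.39, 12.41 and 13.18 in untreated tumours, and rose by 1.28 ± 0.34 (adjusted p = 0.0069). Pecam1 held 12.53, 13.54, 12.18, 14.35 and 14.74 in treated tumours, against 11.25, 12.63, 12.13, 12.19 and 13.36 in untreated tumours, and rose by 1.16 ± 0.33 (adjusted p = 0.0109). The arms overlapped for all 3. Treated replicates 4 and 5 were the highest for all 3 genes and were the only samples on their flow cell, and with that term the differences were 0.55, 0.39 and 0.14 for Angpt2, Plvap and Pecam1, none called.

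All 3 of the KPB25L calls at 3 days were lost without treated replicate 4, with adjusted p of 0.0821 for Angpt2, 0.097 for Plvap and 0.126 for Pecam1, or without treated replicate 5, with adjusted p of 0.0945, 0.0972 and 0.132. Pecam1 (adjusted p = 0.0812) and Plvap (adjusted p = 0.0505) were also lost without untreated replicate 1. Summed adipocyte signal was 6.21 to 15.21 in treated and 6.43 to 9.84 in untreated KPB25L tumours, on the log2 scale, and its part in the result was not tested. The resistant models at 3 days, 14 treated and 11 untreated tumours, had 0 of 10 genes called and 0 at an unadjusted p under 0.05, where 0% of all genes were called and 461 had an unadjusted p under 0.05.

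At end stage, 16 treated and 20 untreated tumours of the sensitive models had 0 of 10 genes called, with 1 at an unadjusted p under 0.05, where 0.0288% of all genes were called and 1354 had an unadjusted p under 0.05. The 13 treated and 18 untreated tumours of the resistant models had 0 called and 0 at an unadjusted p under 0.05, where 0% of all genes were called and 1241 had an unadjusted p under 0.05. In KPB25L-UV alone, Plvap held 14.11, 12.59, 13.15 and 13.72 in treated tumours, against 11.15 to 12.67 in untreated tumours with a median of 12.33. Treated replicate 2 alone lay within the untreated range. Plvap rose by 1.21 ± 0.35 (adjusted p = 0.0206, 2.31-fold higher), where 3.34% of all genes were called higher. The call was lost without replicate number 1, 2 or 4, with adjusted p of 0.0547 to 0.118, and without the libraries that carry T11 transcripts (1.00, adjusted p = 0.0763). The arms shared no flow cell here. Plvap was not called with the spread of these arms alone, where 4 of all 20845 genes tested were called.

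Within treated T11-Apobec, 4 of the 10 genes were higher at end stage than at 7 days and none was called lower, a comparison chosen after their values were seen. Cdh5 held 12.35, 12.67, 12.57 and 13.18 at end stage, against 10.59, 11.39, 10.95 and 10.60 at 7 days. The times did not overlap, and the difference was 1.81 ± 0.35 (adjusted p = 2.17e-05, 3.50-fold higher). Kdr rose by 1.53 ± 0.42 (adjusted p = 0.00337), Tek by 1.68 ± 0.54 (adjusted p = 0.013) and Aplnr by 2.43 ± 0.70 (adjusted p = 0.00465), 4 genes in all where 14.2% of all genes were called higher. Aplnr overlapped through end-stage replicate 1 at 5.90, and it lost its call without 7-day replicate 4 (adjusted p = 0.0505) or end-stage replicate number 3 (adjusted p = 0.0512). The Tek call was lost without 7-day replicate 4 (1.38, adjusted p = 0.0756), and the flow cell term could not be fitted.

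Around them, 8 of 22 further endothelial genes rose (median 0.83), with Nos3, the endothelial nitric oxide synthase, at 1.47 ± 0.33 and Erg at 1.40 ± 0.38. Of the mural cell genes 7 of 11 rose, Pdgfrb by 2.44 ± 0.36, and all 10 T cell genes fell. Over all 20845 genes tested, 2898 were called lower. Untreated T11-Apobec at end stage held 13.01, 12.26, 12.92 and 12.86 of Cdh5 and 10.66, 10.40, 10.71 and 10.52 of Kdr, so the treated tumours then overlapped them (Cdh5 -0.07, Kdr -0.22, neither called).

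**Figure D3:**
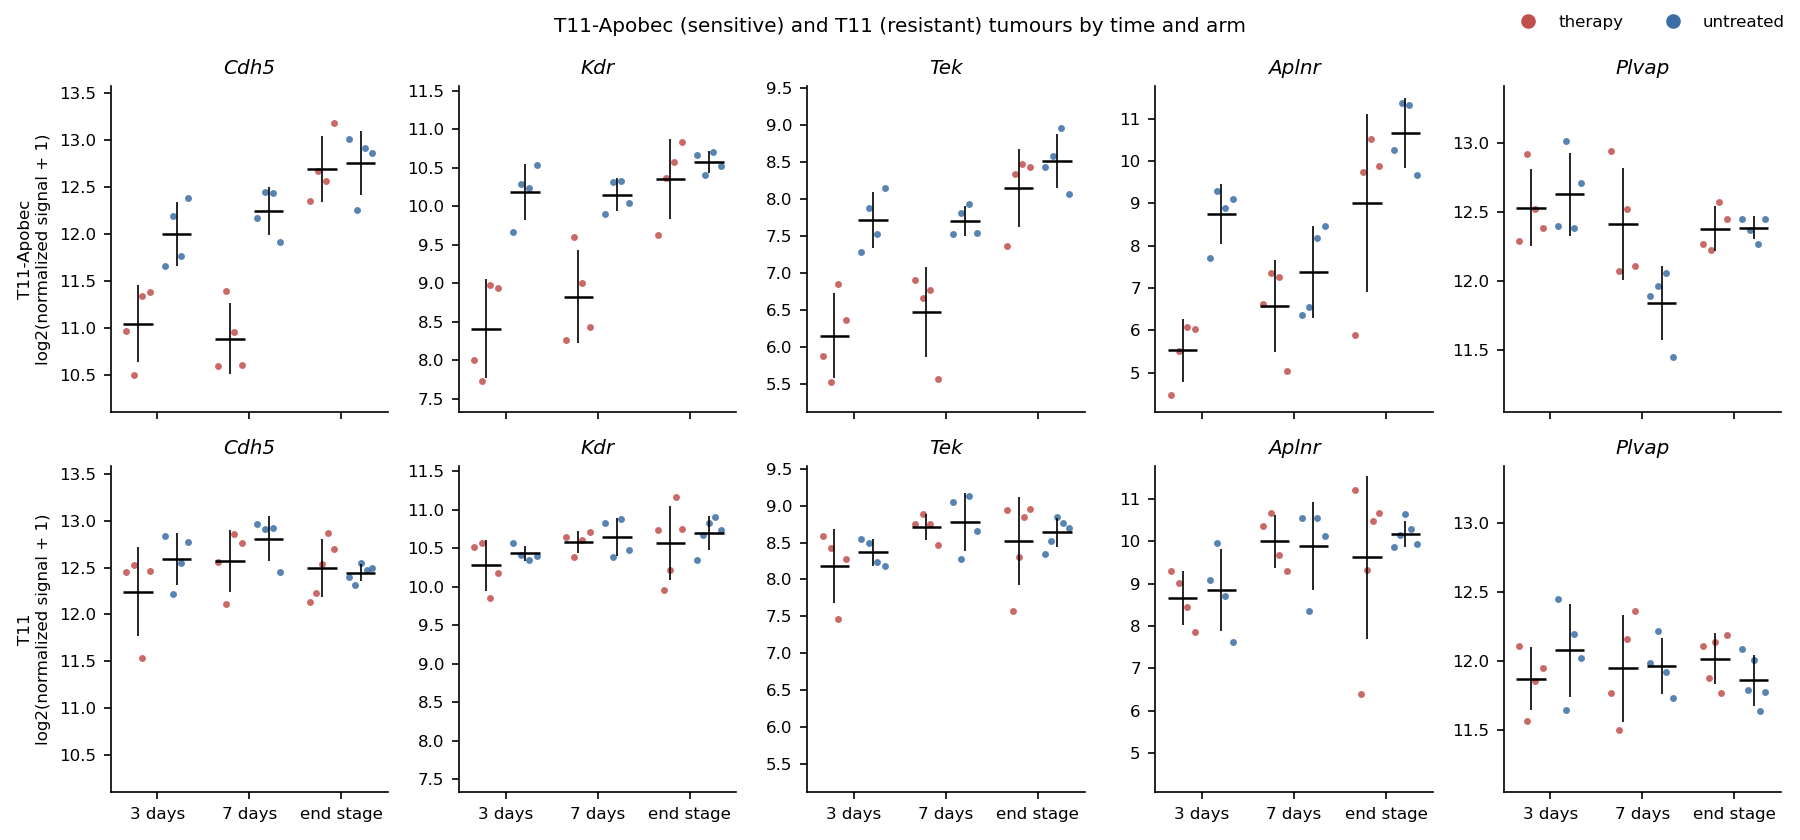
Signal of Cdh5, Kdr, Tek, Aplnr and Plvap (log2 of normalized signal plus 1, y axis) at 3 days, 7 days and end stage (x axis) in T11-Apobec and T11 tumours, with 1 point per tumour, a bar at the mean and a whisker of 1 SD. In T11-Apobec the treated Cdh5 points lie at 10.5 to 11.38 at 3 days and 10.59 to 11.39 at 7 days, under the untreated ones, and meet them at end stage, while the arms of T11 overlap at each time.

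Without therapy, T11-Apobec differed from its parent T11 at 7 days in Aplnr, which held 6.37, 6.54, 8.18 and 8.46 in T11-Apobec tumours, against 10.54, 8.36, 10.56 and 10.12 in T11 tumours. The highest T11-Apobec tumour just passed the lowest T11 tumour. Aplnr was lower by 2.51 ± 0.70 on the log2 scale (adjusted p = 0.0158, 5.68-fold), the 1 gene of the 10 called where 2.84% of all genes were called lower. The call was lost without T11 replicate 1 or 3 or T11-Apobec replicate 1 or 2, with adjusted p of 0.0748 to 0.109. With the spread taken from these groups alone 6 genes were called, Aplnr (adjusted p = 0.0217), Tek (-1.08, adjusted p = 0.00496), Esam (-0.65, adjusted p = 0.00628), Cdh5 (-0.57, adjusted p = 0.0261) and Kdr (-0.50, adjusted p = 0.0324) lower and Vwf (1.21, adjusted p = 0.0352) higher in T11-Apobec. In that setting 6682 of all 20845 genes tested were called in either direction, against 898 in the fit with all groups. The comparison was chosen after the values were seen.

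The parental lines differed at 3 days. Untreated T11 tumours held 10.58, 9.93, 10.67 and 11.40 of Angpt2, against 8.47, 8.48, 9.02, 9.12 and 8.80 in KPB25L tumours, with no overlap, a difference of 1.87 ± 0.46 (adjusted p = 0.000498, 3.65-fold higher in T11). Aplnr held 9.08, 9.97, 8.71 and 7.62 in T11 tumours, against 10.11, 12.34, 10.96, 10.88 and 12.75 in KPB25L tumours, also apart, and was 2.56 ± 0.66 lower in T11 (adjusted p = 0.00102). Kdr was 1.07 ± 0.40 lower in T11 (adjusted p = 0.0291), with 10.57, 10.41, 10.35 and 10.40 in T11 tumours and 10.37, 11.90, 11.31, 11.40 and 12.56 in KPB25L tumours. These 3 of the 10 genes were called where 32.6% of all genes were called in either direction, so their share was close to that of all genes. T11 was set against BALB/c gland above and KPB25L against FVB gland, and tumours grew in syngeneic mice. Tumour line and host strain thus cannot be told apart in this comparison.

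With flow cell as a term none of the parental differences was called, and Angpt2 turned to -1.83 (adjusted p = 0.384), Aplnr to -0.63 and Kdr to -1.6. Kdr also lost its call without KPB25L replicate 2 or 5 or T11 replicate 2, 3 or 4, with adjusted p of 0.0555 to 0.136. Of 10 hypoxia genes 9 were higher in T11 (median 1.69) in the fit without that term, where 2536 of 20845 genes tested were called higher. Their part in the Angpt2 difference was not tested. With flow cell as a term 389 of all genes were called in either direction, against 6787 without it. Over the 11 models with untreated 3-day groups of at least 3 tumours, the T11 family held the 3 highest means of Angpt2 (10.65 in T11, 10.48 in T11-UV and 10.15 in T11-Apobec) and the 3 lowest of Aplnr (8.85, 8.62 and 8.74), with neighbours in that order mostly within their SD.

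Sensitive and resistant models were compared without therapy at 3 days, with the 12 model means as the replicates. None of the 10 genes was called and 2 had an unadjusted p under 0.05, where 0.729% of all genes were called and 4245 had an unadjusted p under 0.05. Flt1 was 0.84 higher in sensitive models (adjusted p = 0.112), with model means of 11.3 to 12.41 in sensitive and 10.34 to 11.78 in resistant models. The T11 and KPB25L families each contribute several of these means, which are not independent.

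Growth without therapy, from 3 days to end stage, was compared in the 7 models that also had therapy arms. KPB-1A, p53-2224L and p53-9263-3 had untreated tumours at both times too, with 1 or 2 tumours at one of them, and were not compared. Plvap averaged 11.92 at end stage and 12.36 at 3 days and fell by 0.44 ± 0.14 (adjusted p = 0.0353), in 6 of 7 models, the only gene of the 10 called where 4.29% of all genes were called lower. Its call was lost in 10 of 36 omissions of a library or replicate number, which were replicate 2 of T11-Apobec, KPB25L-UV and p53-2336R, replicates 2 and 5 of KPB25L and replicate 1 of T11 at 3 days, and replicate numbers 2 to 5 at end stage, with adjusted p up to 0.113. Without the libraries that carry T11 transcripts it was -0.41 (adjusted p = 0.0461). In KPB25L-UV 3 genes fell where 13.2% of all genes were called lower, and the median over the 10 genes was -1.03, beside -0.11 over all genes. Plvap there held 11.15 to 12.67 at end stage, against 13.79, 14.76, 13.88 and 13.56 at 3 days, with no overlap (-1.81 ± 0.35, adjusted p = 0.000102, 3.51-fold lower), and Pecam1 held 11.46 to 12.66, against 13.51, 14.53, 13.18 and 13.38 (-1.33 ± 0.33, adjusted p = 0.00278).

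Kdr fell by 1.09 ± 0.39 (adjusted p = 0.0391) in KPB25L-UV growth, a call lost without 3-day replicate 1 or 2 or end-stage replicate number 2, 3 or 4, with adjusted p up to 0.182. Pecam1 lost its call without 3-day replicate 2 (-1.04, adjusted p = 0.0706). Without the libraries that carry T11 transcripts Plvap (-1.64, adjusted p = 0.0012), Pecam1 (-1.31, adjusted p = 0.0076) and Kdr (-1.04, adjusted p = 0.0455) were called, and Tek with them (-1.31, adjusted p = 0.0439). With flow cell as a term Plvap was -3.15 (adjusted p = 0.0583), and Angpt2 became the only call (-4.19, adjusted p = 0.0348). Of 22 further endothelial genes 13 fell, as did 9 of 10 T cell genes and 5 of 8 fibroblast genes. In p53-2336R growth Aplnr fell by 2.40 ± 0.67 (adjusted p = 0.0193), where 2.1% of all genes were called lower. It held 5.13 to 11.27 in the 8 end-stage tumours, against 11.22, 12.07 and 11.89 at 3 days, and the call was lost without any 3-day replicate or end-stage replicate number 3 or 5, with adjusted p of 0.0544 to 0.157, and with flow cell as a term (-0.72, adjusted p = 0.985). The call was also lost with the spread of these groups alone, where 1 of all 20845 genes tested was called.

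The 10 genes moved together from tumour to tumour within groups. After the mean of each group was taken out, the 45 pairs of genes had Pearson correlations from -0.30 to 0.87 over 192 tumours in 47 groups, with a median of 0.46, and 42 pairs were above 0. These tumours share arms, models and flow cells, and the correlations are descriptions. Pecam1 and Plvap were closest (0.87), followed by Pecam1 and Esam (0.83), Cdh5 and Kdr (0.82), Esam and Plvap (0.82) and Kdr and Tek (0.81). Tek was also close to Aplnr (0.76) and Cdh5 (0.71). Angpt2 stood apart, at -0.30 with Aplnr, -0.21 with Tek and 0.02 with Kdr, but at 0.58 with Flt1 and 0.50 with Pecam1.

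Against the mean of the other 9 genes, the correlation was 0.90 for Pecam1, 0.86 for Cdh5, 0.78 for Esam, 0.75 for Plvap, 0.74 for Kdr, 0.65 for Tek, 0.53 for Flt1, 0.42 for Vwf and Aplnr and 0.27 for Angpt2. Between groups lay 54.9% of the variance for Vwf, the lowest share, and 78.4% for Aplnr, the highest. The SD within groups was 0.46 for Flt1 and Esam and 1.00 for Aplnr.

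The genes of the table whose within-group pattern was most like the mean of the 10 were Tie1 (0.91) and Robo4 (0.91), both receptors of endothelial cells, then Adcy4 (0.88) and Mmrn2 (0.87), and at 0.84 Sox17, Rasip1, Ushbp1, Arhgef15, Nos3 and Gpr4. Of these 10, 6 are on the list of further endothelial genes. Set beside the mean of that list the correlation was 0.95, beside mural cell genes 0.81, fibroblast genes 0.70, T cell genes 0.22, hypoxia genes -0.22 and the estimated number of reads -0.01.

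**Figure D4:**
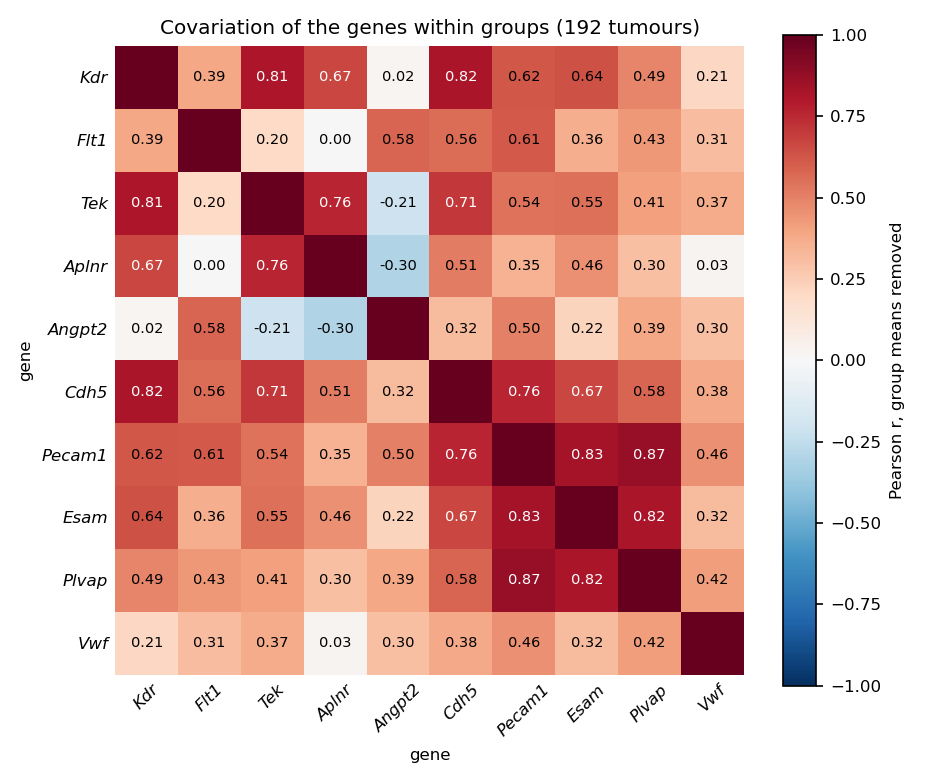
Pearson correlation between each pair of endothelial genes (both axes) over 192 tumours after removal of the mean of each of 47 groups, in colour and number. Pecam1, Esam and Plvap form a block at 0.82 to 0.87, and the 3 cells not above 0 are Angpt2 with Tek (-0.21), Angpt2 with Aplnr (-0.30) and Flt1 with Aplnr, which rounds to 0.

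The cultured lines held tumour cells without vessels, in 1 library each and in a table normalized apart from the tumours, so values are signal without replicates or test. Flt1 was present in the 3 T11 lines, at 416.12, 693.8 and 546.38, against 0.98, 8.77 and 2.92 in the 3 KPB lines. In the T11 lines this lay at percentiles 62.0 to 69.1 of the genes above 0. Angpt2 stood at 42.09, 63.73 and 33.05 in the T11 lines, against 0.33, 6.78 and 3.76 in the KPB lines. T11 lines were higher in both genes in each library. Kdr was listed at 0 in all 3 T11 lines and at 1.64, 1.6 and 0.84 in the KPB lines, and no member other than Flt1, Angpt2 and Plvap passed 17.19, the highest value of Aplnr. The part of tumour cells in the Flt1 and Angpt2 signal of T11 tumours was not tested.

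**Figure D5:**
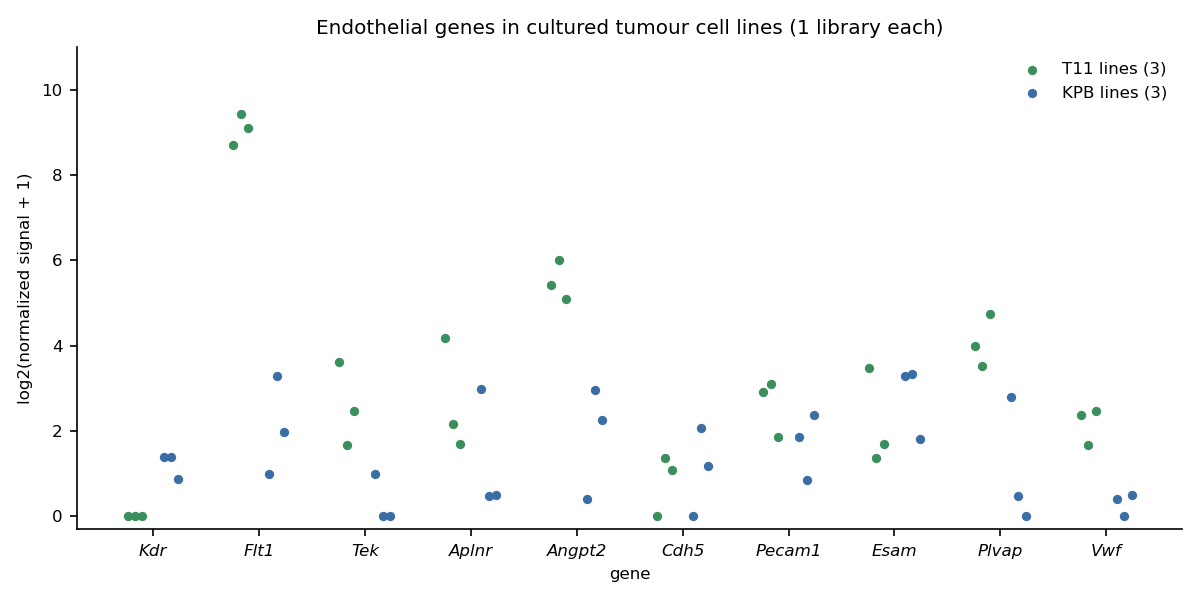
Signal of each endothelial gene (x axis) in 3 cultured T11 lines and 3 cultured KPB lines (log2 of normalized signal plus 1, y axis), 1 point per library without replicates. Flt1 and Angpt2 points of the T11 lines lie above all KPB points, and the Kdr points of the T11 lines lie at 0.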

How the data were processed

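RNA of tumours and glands was measured by mRNA sequencing, with the Illumina TruSeq kit per the labels' protocols. STAR, SAMtools, Picard and Salmon and the mouse build mm10 were used per the submitters' processing notes. No source used here gives their versions or settings. The deposited signal per gene had been scaled by the authors: the upper quartile of values above 0 was the same in every library, at 2048.974 for tumours and 1000 for cultured lines. It is not a count, and of the values above 0 and under 200 reads, 28.4 to 83.7% per library lay within 0.01 of a whole number of reads, so no count test was run.

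Of 45724 entries, 39 with date names and 28 of repeated symbols were left out. The 2 libraries of 1 KPB25L mouse (7 days, untreated) were averaged. A pseudocount of 1 was added before log2. Of the genes above 0 in at least 4 samples, the upper 66.7% by mean were tested. Linear models with 1 mean per group were fitted with limma 3.58.1 in R 4.3.3 with a trend, over 192 samples in 47 groups with 145 residual degrees of freedom. Tumours at end stage and glands had a fit of their own. Multi-model contrasts weighted models equally, and the class comparison used model means. P-values rest on the spread between mice within groups, shared over all groups of a fit. In the class comparison they rest on the spread between model means. Mouse numbers DH1012 to DH1015 occur both in T11-UV (7 days) and in KPB25L-UV (end stage). All were kept. The fit over 192 samples was tested on simulated data, for therapy contrasts. The fit with glands and the class comparison were not tested in this way. Alternatives were a pseudocount of 10, no filter, median-of-ratios scaling, the spread of the compared groups, flow cell as a term, omission of libraries, and omission of the libraries with T11 transcripts.

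The members and lists were chosen with earlier results of these data known. Named genes beyond the 10 were, per list, up to 3 called genes with the largest differences, and the 10 genes with the highest correlation to the mean of the members' standardized values. Comparisons of a single model at 3 days or end stage, T11-Apobec against T11, T11-Apobec over time and ILC against PyMT were added after the data were seen. Promoters came from RefSeq (GRCm38.p6), searched for GGAA on both strands. Figures were drawn with matplotlib 3.10.9.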

Additional observations from a re-analysis of the deposited data

Results flagged for a closer look

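A sample that stood far from the others of its group was looked for in the glands and the 7-day tumour groups only. In 110 sets of 4 to 10 samples 8 were found, where chance gives about 1 in 20, or 5.5. Groups at 3 days and at end stage were not searched. Of these, 5 were 1 library, BALB/c gland replicate 1, which was low in Cdh5 (11.97, others 13.63 to 14.06), Kdr (12.01, others 13.05 to 13.34), Tek (9.9, others 11.61 to 12.29), Flt1 (10.77, others 12.17 to 12.61) and Vwf (10.43, others 12.50 to 12.80). Its Pecam1, at 14.26, was the highest of the 5 glands, and it was the only gland on its flow cell. FVB gland replicate 4, labelled as pooled, was low in Esam (11.09, others 12.02 to 12.18). Untreated T11 replicate 4 at 7 days was low in Cdh5 (12.45, others 12.91 to 12.96). Treated T11-UV replicate 3 at 7 days was high in Aplnr (6.73, others 4.91 to 5.09).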

How the results depend on the processing

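Of 626 counts of called members under an alternative, 531 stayed within 1.5 times, and of 1711 single differences 1511 kept direction and side of the threshold, 144 lost their call, 55 gained one and 1 reversed, Angpt2 in T11 minus KPB25L with flow cell as a term (-1.83). The gland counts stayed within 1.5 times in each alternative run. Counts of called members that moved were as follows, and the cause was not tested. A pseudocount of 10 gave 1 for sensitive models at 3 days. No filter gave 1 for that comparison, 1 for KPB25L-UV at 7 days and 0 for growth. Median-of-ratios scaling gave 1 for sensitive models at 3 days and 4 for KPB25L-UV at 7 days. The spread of the compared groups gave 4 for T11-Apobec at 7 days, 4 for T11-Apobec minus T11, 6 for untreated T11-Apobec minus T11, and 0 for sensitive models at 3 days, T11-UV and KPB25L-UV at 7 days, T11-Apobec and KPB25L at 3 days, KPB25L-UV at end stage and p53-2336R growth. Flow cell gave 4 for KPB25L-UV at 7 days, 1 for resistant models at 3 days (Angpt2, 1.57), 1 for KPB25L-UV growth, and 0 for sensitive models and KPB25L at 3 days, T11-UV at 7 days, T11 minus KPB25L and p53-2336R growth. Without the T11-carrying libraries KPB25L-UV had 0 at 7 days and 0 at end stage. With 1 library left out the counts ran over 0 to 4 for sensitive models and KPB25L at 3 days, 0 to 2 for T11-Apobec at 3 days and p53-2336R growth, 0 to 5 for KPB25L-UV at 7 days, 2 to 4 for sensitive models at 7 days and T11-Apobec at end stage minus 7 days, 1 to 2 for T11-Apobec at 7 days, 0 to 1 for T11-UV at 7 days, KPB25L-UV at end stage, growth and untreated T11-Apobec minus T11, and 1 to 4 for KPB25L-UV growth. Scaling by median of ratios shifted the median of all genes by up to 0.18 on the log2 scale. The flow cell term could not be fitted for growth over all models, KPB25L-UV at end stage, T11-Apobec over time, ILC minus PyMT and most gland comparisons, and it and the spread of the compared groups were not run for the class comparison. No paired analysis was possible because the labels give mouse numbers and no replicate numbers shared between the groups. Few samples per arm limit the single-model comparisons, and depth is an estimate only.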
